A study of Mus musculus with 10 samples.

Results

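The genes described here drive the cell cycle and DNA replication. They were taken from a written list of 44 mouse genes, 28 of them acting at the entry into and through S phase (G1/S) and 16 acting in G2 and mitosis (G2/M), by the gene symbol of each array probe. Of the 44 genes, 37 had a named probe, and these carried 68 of the 25697 probes on the array. After a filter on probes near background, 60 probes of 35 genes were tested, 24 of them G1/S and 11 of them G2/M. Ccnb2 and Bub1 had probes that lay above background on 0 of the 10 arrays. Gins1, Gins2, Rfc3, Cdk4, Ccnb1, Aurkb and Mki67 were not analysed on the arrays.

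The cells were KH2, a mouse embryonic stem (ES) cell line in which a doxycycline-driven transgene produces Sox17 with a V5 tag. Sox17 is a transcription factor of the endoderm. Total RNA was read on 10 Illumina bead arrays, 5 labelled as not induced and 5 as induced with doxycycline for 48 h, and the question of the design was which genes change when Sox17-V5 is made. All 10 samples carry the same line name and the same transgene, and the labels do not say whether replicates were separate cultures or clones, so the p-values measure only the spread between these samples, which may be technical. Arrays are named below by their label and the number in their title, from uninduced 1 to induced 5. The description of each sample numbers its replicate, and this number starts again at titles 4 and 5 under both labels; titles 1 to 3 are called the first run and titles 4 and 5 the second, which says no more than the labels do.

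Progress through the cycle is driven by cyclin-dependent kinases (CDKs). D cyclins with CDK4 or CDK6, and E cyclins with CDK2, act on the retinoblastoma proteins and release E2F factors, which switch on the genes of DNA replication. The MCM proteins form the ring-shaped helicase that Cdc6 and Cdt1 load onto origins, Cdc45 and the GINS proteins activate it, and the clamp Pcna, loaded by the replication factor C (RFC) subunits, holds the polymerase on DNA. Genes of G2 and mitosis are switched on later, largely through promoter elements called CHR and CCAAT, and their products, among them Cdk1, Plk1 and the Aurora kinases, drive entry into mitosis and the separation of chromosomes. ES cells cycle fast, with a short G1 phase and little D cyclin and CDK inhibitor activity relative to many differentiated cells.

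Both classes can be seen in promoter sequence, which the arrays do not measure. Promoter windows from 250 bases before to 50 bases after a gene's start were read from RefSeq (build GRCm38.p6) and searched on both strands for short words. The 4 E2F words were TTCGCGC, the variant TTCCCGC, the variant TTGGCGC and the variant TTGCCGC. The 2 CHR words were TTTGAA and the variant TTTAAA, and the last word was the CCAAT box. A window was found for 21 of the G1/S members (23 windows) and for 13 of the G2/M members (13 windows). These include members that were not tested on the arrays: Rfc3 and Cdk4 in G1/S, and Ccnb1, Ccnb2, Bub1 and Mki67 in G2/M. An E2F word stood in 56.5% of the G1/S windows and 23.1% of the G2/M windows, against 15.9% of the 10541 windows of tested genes. A CHR word together with CCAAT stood in 21.7% of the G1/S windows and 76.9% of the G2/M windows, against 7.57% of the windows of tested genes. Over all 32851 windows the shares were 9.57% for an E2F word and 10.7% for CHR with CCAAT. The G2/M windows with an E2F word were those of Cdk1, Ccnb1 and Mki67, of which only Cdk1 was tested on the arrays. All these matches describe letters in a window and not bound sites. The following 4 windows are shown because within each pair the genes carry the same kind of element and were called in opposite directions, on the brightest probe, in the comparison between array sets described below. The first pair is Mcm3 (chr1:20820263-20820562, minus strand) and Mcm7 (chr5:138171834-138172133, minus strand, the first of its 2 windows), with E2F words in capitals. The second pair is Aurka (chr2:172370521-172370820, minus strand) and Kif11 (chr19:37376132-37376431, plus strand), with CHR words and CCAAT in capitals; matches on the other strand appear as their reverse complement, and matches that overlap run together.
Mcm3: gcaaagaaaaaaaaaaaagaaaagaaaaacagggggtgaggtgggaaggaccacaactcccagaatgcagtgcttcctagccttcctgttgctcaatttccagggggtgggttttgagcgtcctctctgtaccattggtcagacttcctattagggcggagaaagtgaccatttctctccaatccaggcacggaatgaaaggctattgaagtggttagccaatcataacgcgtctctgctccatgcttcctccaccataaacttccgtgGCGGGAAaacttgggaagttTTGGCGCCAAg
Mcm7: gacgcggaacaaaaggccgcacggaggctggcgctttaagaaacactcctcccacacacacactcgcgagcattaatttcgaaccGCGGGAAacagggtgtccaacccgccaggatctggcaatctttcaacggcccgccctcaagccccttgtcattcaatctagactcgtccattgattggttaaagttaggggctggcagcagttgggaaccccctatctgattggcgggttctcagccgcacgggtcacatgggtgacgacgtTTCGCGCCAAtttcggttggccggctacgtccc
Aurka: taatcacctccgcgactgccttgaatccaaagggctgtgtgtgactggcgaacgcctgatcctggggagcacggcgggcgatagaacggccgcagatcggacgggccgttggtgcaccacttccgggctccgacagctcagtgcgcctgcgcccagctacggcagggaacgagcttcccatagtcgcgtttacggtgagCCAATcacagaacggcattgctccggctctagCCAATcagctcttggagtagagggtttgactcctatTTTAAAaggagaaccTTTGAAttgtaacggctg
Kif11: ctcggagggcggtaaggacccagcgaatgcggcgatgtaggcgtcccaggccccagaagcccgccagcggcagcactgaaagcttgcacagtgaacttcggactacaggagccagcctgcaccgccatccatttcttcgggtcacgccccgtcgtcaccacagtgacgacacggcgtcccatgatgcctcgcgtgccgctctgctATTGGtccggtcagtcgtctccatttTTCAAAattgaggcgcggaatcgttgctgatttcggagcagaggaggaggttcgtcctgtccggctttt
The Mcm3 and Mcm7 windows each held 3 matches to E2F words. The Aurka window held 2 CHR words and 2 CCAAT words, and the Kif11 window 1 of each.

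Sox17, the gene named by the labels, was read first. Whether the array reads the transgene, the cell's own Sox17 gene or both was not tested. Sox17 gave 30.5 to 32.6 intensity units on uninduced 1 to 3, 60.6 to 67.3 on uninduced 4 and 5 and induced 1, and 11.99 to 16.6 on induced 2 to 5, so it was not higher under the induced label, and no direction due to induction is drawn below. Induced 1 lay with uninduced 4 and 5. Whether titles or columns of the deposited values were exchanged was not tested, so each label and set value below holds for the arrays as labelled. Probes of 1356 chemosensory receptor entries, split the arrays into a set of 6 (uninduced 1 to 5 with induced 1) and a set of 4 (induced 2 to 5), and this split was used as an array set in the models. Values are given by title groups: uninduced 1 to 3, uninduced 4 and 5 with induced 1, induced 2 and 3, and induced 4 and 5. The ES cell label was borne out by its markers, 8 of 8 of which lay above the background limit on every array, with a summed intensity of 48299.8 to 53643. The largest components of variation held 56.7% and 20.4% of the variance.

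Between the runs, cyclin D2 was the member with the largest difference and the member called under both labels. Ccnd2 encodes a D cyclin that pairs with CDK4 or CDK6 in G1. Its probe (ILMN_2700166) read 956, 892 and 910 on uninduced 1, 2 and 3, 394 and 416 on uninduced 4 and 5, 404 on induced 1, 523 and 579 on induced 2 and 3, and 193 and 232 on induced 4 and 5. Under both labels every array of the second run was below every array of the first run with the same array set, and induced 1 read like uninduced 4 and 5. The group means were 919 ± 33.1 (SD, n = 3), 405 ± 10.9 (SD, n = 3, with induced 1), 551 ± 39.9 (SD, n = 2) and 212 ± 27.9 (SD, n = 2).

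The run difference was tested with limma inside each label and array set, on log2(intensity + 16) and with Benjamini-Hochberg adjustment over all 14985 tested probes. A fold on this scale understates the change of a dim gene. Ccnd2 fell by 1.15 ± 0.10 (SE) between uninduced 1 to 3 and uninduced 4 and 5 (0.450 times, adjusted p = 0.000206). It fell by 1.32 ± 0.11 between induced 2 and 3 and induced 4 and 5 (0.401 times, adjusted p = 0.000179). Among 10084 tested genes, ordered from the most negative difference, it ranked 32 in the first comparison and 38 in the second. The difference of the run differences was -0.17 ± 0.15 (adjusted p = 0.714). In bulk RNA, fewer cells with a transcript and less transcript per cell cannot be told apart. When induced 1 was counted with induced 2 and 3, against its array set, the induced run difference of Ccnd2 was -1.17 with an adjusted p of 0.289.

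**Figure D1:**
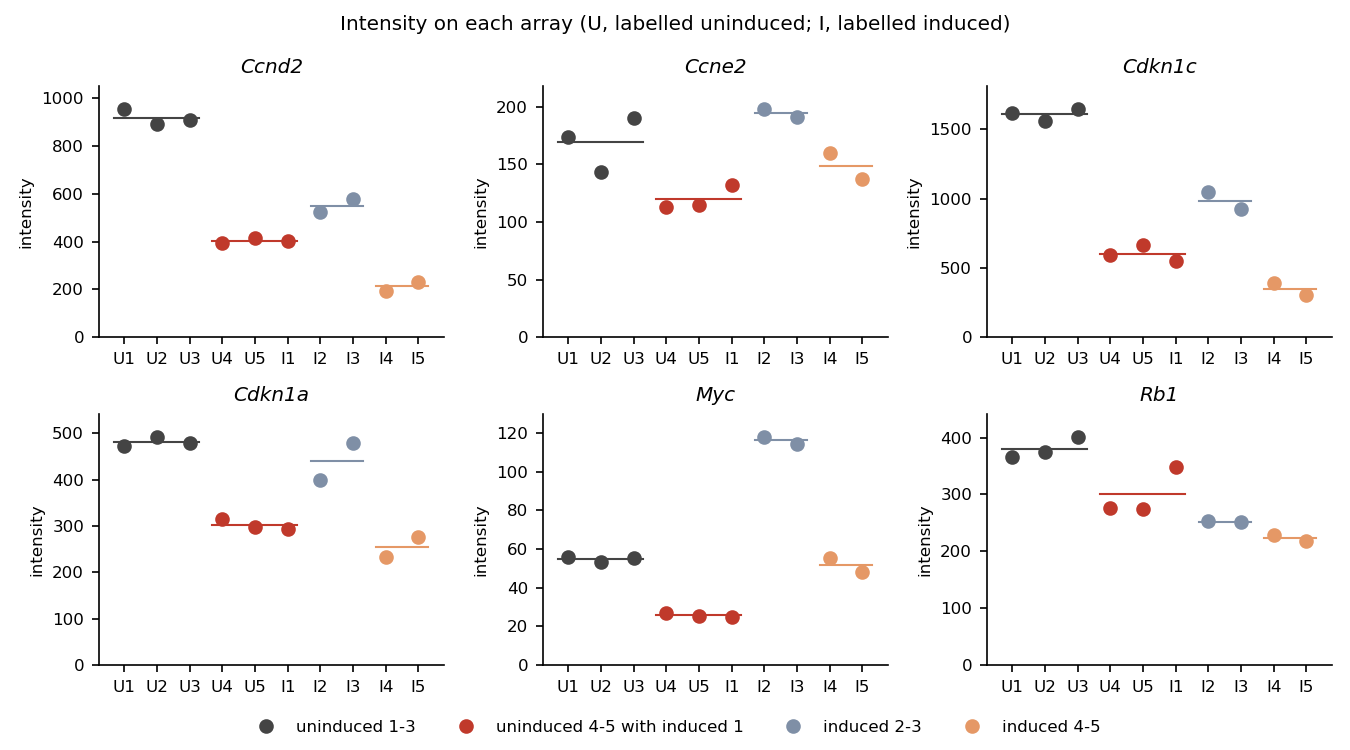
Intensity (linear units, vertical axis from 0) of Ccnd2, Ccne2, Cdkn1c, Cdkn1a, Myc and Rb1 on each of the 10 arrays, U for those labelled uninduced and I for those labelled induced. Points are single arrays, colours are title groups and short lines are group means. Ccnd2, Cdkn1c, Cdkn1a and Myc are lower on arrays 4 and 5 than on the first-run arrays of the same label and array set, and induced 1 lies with uninduced 4 and 5.

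Few of the other members passed the test between runs. In the uninduced arrays 2 of 35 tested members fell and 0 rose, where 5.03% of all 10084 genes fell and 5.01% rose. In the induced arrays 1 of 35 fell, Ccnd2 alone, and 0 rose, where 5% of all genes fell and 3.38% rose. These shares of members are near the background, so the class as a whole did not stand out by its calls. At an unadjusted p under 0.05, 9 members were lower and 0 higher in the uninduced run difference, and 2 lower and 0 higher in the induced. The share of all genes at this unadjusted level was not counted, so these counts are not read as particular to the members.

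The second member that fell was Ccne2, which encodes an E cyclin, the partner of CDK2 at the start of S phase. It read 174, 143 and 191 on uninduced 1, 2 and 3, 113 and 115 on uninduced 4 and 5, 132 on induced 1, 198 and 191 on induced 2 and 3, and 160 and 137 on induced 4 and 5. Second-run arrays were below first-run arrays of the same label and set without overlap, and the gap was narrow in places. The difference was -0.51 ± 0.12 in the uninduced arrays (adjusted p = 0.0303) and -0.36 in the induced (adjusted p = 0.149). The uninduced call was lost when any of uninduced 1, 3, 4 or 5 was left out. It was also lost without the filter on dim probes and when the uninduced arrays were fitted alone.

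The other G1 members had small differences between runs. Ccnd3, another D cyclin, read 2859, 3276 and 3279 on uninduced 1 to 3, 3559 and 3463 on uninduced 4 and 5, 3314 on induced 1, 3577 and 3646 on induced 2 and 3, and 3879 and 3948 on induced 4 and 5. It was higher in the second run under both labels without overlap, by 0.16 (adjusted p = 0.286) and 0.12 (adjusted p = 0.573), opposite in sign to Ccnd2 and not past the test. Ccne1, the other E cyclin, differed by -0.22 (adjusted p = 0.238) and 0.09 (adjusted p = 0.750), and Cdk2, the kinase of both, by 0.20 (adjusted p = 0.242) and 0.04 (adjusted p = 0.889). Ccnd1, the remaining D cyclin and not among the 44 genes, lay between 2156 and 2432 on all 10 arrays.

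Genes around the D cyclins that were not among the 44 showed where else the runs differed. A list of 17 such genes (CDK inhibitors, retinoblastoma proteins, MYC and their regulators) had 14 tested genes, of which 4 fell and 0 rose in the uninduced run difference and 3 fell and 0 rose in the induced. The median of the 14 was -0.08 and 0.03, so the list did not move as a body. The median over all tested genes was -0.01 in each comparison. By calls the list held 28.6% in the uninduced and 21.4% in the induced run difference, all of them falls. Of all genes 5.03% fell and 5.01% rose in the uninduced, and 5% fell and 3.38% rose in the induced. The list was chosen with earlier results of these data known, so its shares beside those of all genes are not a test of it.

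Cdkn1c encodes p57, an inhibitor of G1 CDKs. It read 1618, 1561 and 1647 on uninduced 1 to 3, 596 and 661 on uninduced 4 and 5, 546 on induced 1, 1044 and 925 on induced 2 and 3, and 391 and 303 on induced 4 and 5. Both second-run groups were below their first-run groups, by 1.33 ± 0.12 (adjusted p = 0.000220) and by 1.47 ± 0.13 (adjusted p = 0.000233) on the log2 scale, larger than for Ccnd2. Cdkn1a, the inhibitor p21, read 473, 493 and 480, then 316 and 297, then 293 on induced 1, then 400 and 480, then 232 and 276. It fell by 0.63 ± 0.11 (adjusted p = 0.00731) in the uninduced and by 0.76 ± 0.12 (adjusted p = 0.00462) in the induced arrays.

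Myc, a transcription factor that drives growth and G1 genes, read 56.1, 53.3 and 55.3 on uninduced 1 to 3, 27.0 and 25.4 on uninduced 4 and 5, and 24.8 on induced 1. On induced 2 and 3 it read 118 and 114, and on induced 4 and 5 it read 55.4 and 48.2. It fell between runs by 0.75 ± 0.08 (adjusted p = 0.000753) and by 0.97 ± 0.09 (adjusted p = 0.000311). Rb1, the retinoblastoma protein itself, fell in the uninduced run difference by 0.44 ± 0.08 (adjusted p = 0.00989), and its induced difference was -0.16 (adjusted p = 0.341). The uninduced call of Rb1 was lost without uninduced 4 or without uninduced 5, and that of Cdkn1a without uninduced 5.

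Some markers of another lineage moved with the runs. For reference, 5.01% of all genes rose in the uninduced and 3.38% in the induced run difference. Of 9 tested endoderm markers 6 rose in the uninduced and 3 in the induced run difference, and the summed intensity of the endoderm list was 3452 to 3616 on uninduced 1 to 3, 9400 to 10352 on uninduced 4 and 5, 9709 on induced 1, 3561 to 3718 on induced 2 and 3 and 6457 to 6552 on induced 4 and 5. Col4a1, a basement membrane collagen, had the largest run differences of the list, 2.89 and 2.24. The medians of the 9 were 0.73 and 0.15. In the induced run difference 3 of the 9 were negative, down to -0.26. Foxa2 lay above the background limit on 1 array. The part of cells of that lineage in the fall of Ccnd2, Cdkn1c, Cdkn1a and Myc was not tested. Of 8 tested ES cell markers, 0 were called in the uninduced run difference and 1, Pou5f1, rose in the induced. The summed intensity of the fibroblast list was 334 to 348 on uninduced 1 to 3 and 142 to 224 on the other 7 arrays; 4 of its 8 genes were tested, Thy1 among them was lower in the second run under both labels, and Col3a1 and Postn lay above the limit on 0 arrays.

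**Figure D2:**
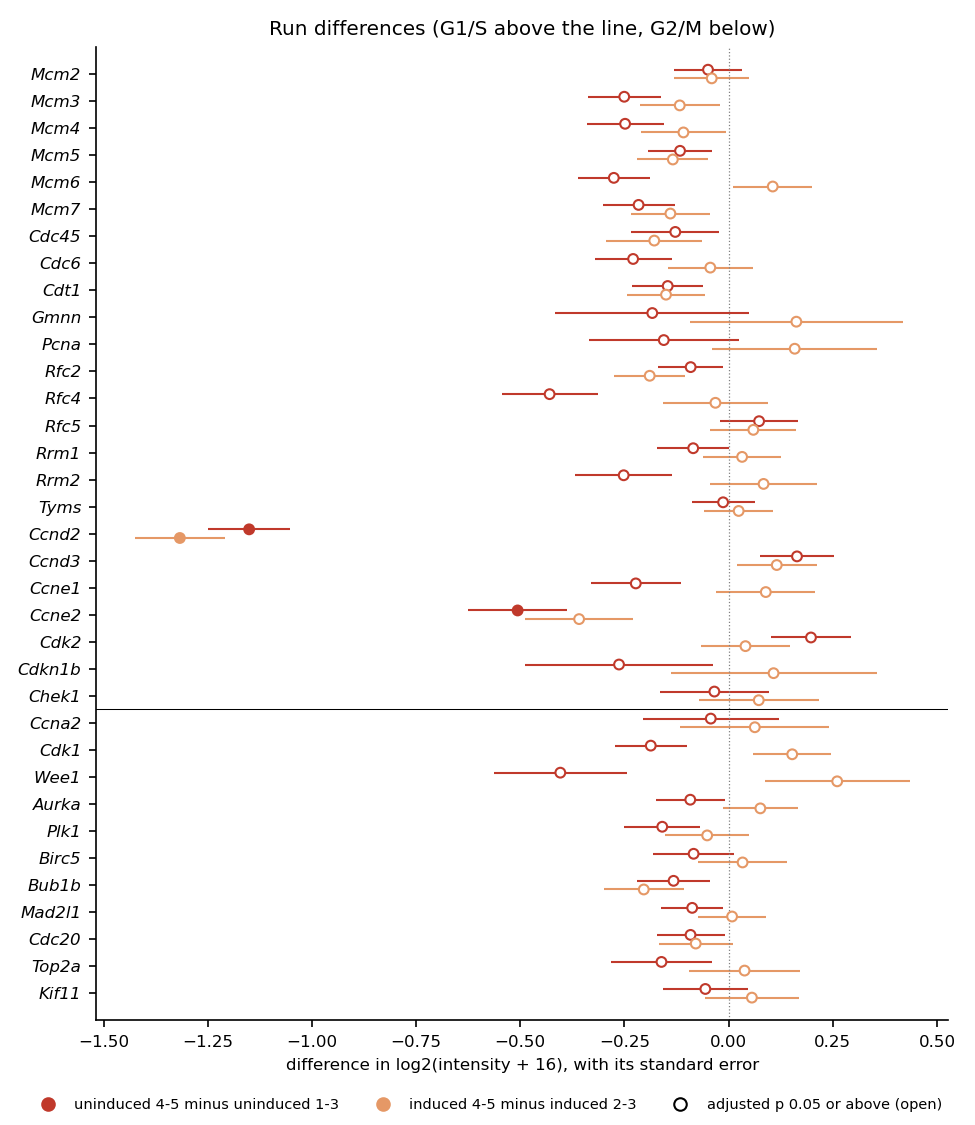
Run difference of each of the 35 tested members in log2(intensity + 16), with its standard error, for uninduced 4 and 5 minus uninduced 1 to 3 (red) and induced 4 and 5 minus induced 2 and 3 (orange); filled points have an adjusted p under 0.05. Ccnd2 is filled in both and Ccne2 in the uninduced difference, and nearly all red points lie left of 0 while orange points lie on both sides.

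Small differences of the same sign were common among members of both classes in the uninduced run difference, and 33 of the 35 did not pass the test. In the uninduced run difference 32 of 35 members were negative, with a median of -0.15, where 51.4% of all tested genes were negative and the median was -0.01. This held for 21 of 24 G1/S genes (median -0.17) and for 11 of 11 G2/M genes (median -0.09). In the induced run difference 15 of 35 were negative, with a median of 0.03. The difference between the run differences was called for 0 of 35 members, where limma called 0.0198% of all genes, and 4 members had an unadjusted p under 0.05. For this unadjusted level too, the share of all genes was not counted.

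All 7 tested helicase genes were negative in the uninduced difference, and none passed on its brightest probe. Mcm6 differed by -0.28 (adjusted p = 0.0805), and a second probe of it by -0.34 (adjusted p = 0.0466). A second probe of Mcm4 fell by 0.54 (adjusted p = 0.0470), whereas the brightest gave -0.25 (adjusted p = 0.130). Mcm2, Mcm3, Mcm5, Mcm7 and Cdc45 lay between -0.25 and -0.05. Of the clamp loader, Rfc4 read 1662, 1389 and 1710 on uninduced 1 to 3 and 1145 and 1194 on uninduced 4 and 5, a difference of -0.43 that narrowly missed the threshold (adjusted p = 0.0503). With the mean over all tested probes of each gene, an alternative added after the data were seen, 5 members fell in the uninduced run difference, namely Ccnd2, Ccne2, Cdc6, Mcm6 and Rfc4, where 5.93% of all genes fell.

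Pcna, the clamp, is often read as a marker of replicating cells. It read 480, 439 and 483 on uninduced 1 to 3, 386 and 451 on uninduced 4 and 5, 497 on induced 1, 545 and 386 on induced 2 and 3, and 424 and 623 on induced 4 and 5. All title groups overlapped, and the differences between runs were -0.16 (adjusted p = 0.646) and 0.16 (adjusted p = 0.727). Induced 2 and 3 differed from each other by more than any pair of title-group means did.

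**Figure D3:**
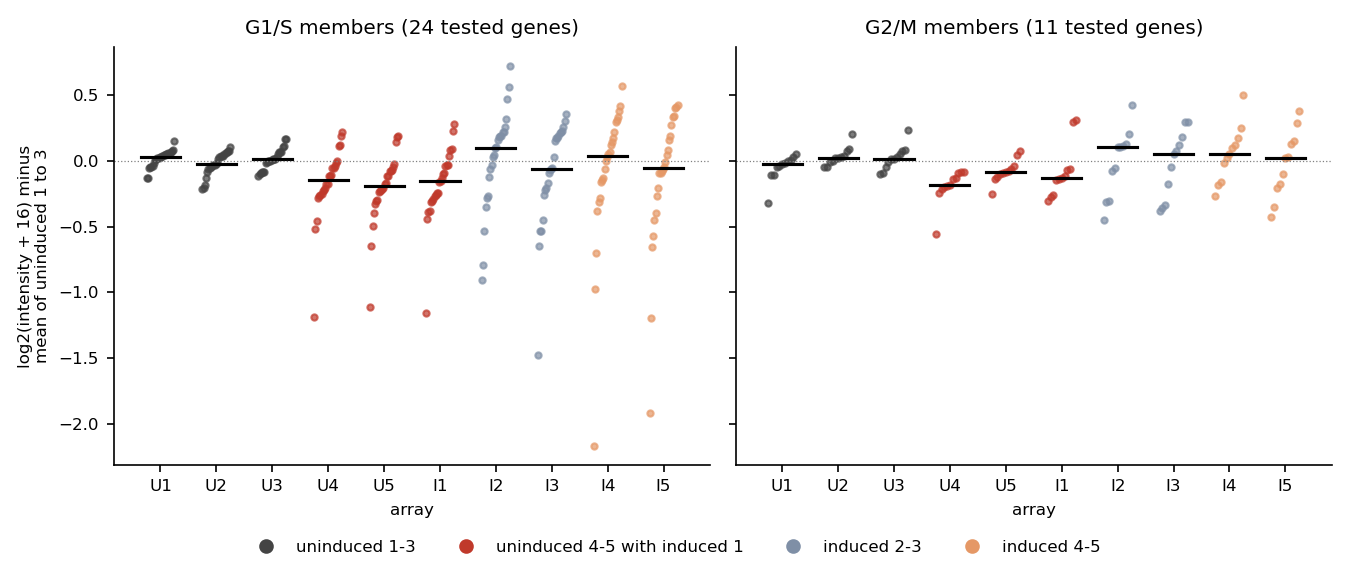
Tested G1/S members (left, 24 genes) and G2/M members (right, 11 genes) on each array, as log2(intensity + 16) minus the gene's mean over uninduced 1 to 3, with points for genes and black lines for medians. The medians of uninduced 4, uninduced 5 and induced 1 lie between -0.19 and -0.09 in both classes, and those of induced 2 to 5 between -0.06 and 0.10; uninduced 1 to 3 are near 0 because they set the reference.

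The medians by array show the same in both classes. Relative to the mean of uninduced 1 to 3, the G1/S median was -0.15 on uninduced 4, -0.19 on uninduced 5 and -0.16 on induced 1, and the G2/M median was -0.18, -0.09 and -0.13. On induced 2, 3, 4 and 5 the G1/S medians were 0.10, -0.06, 0.04 and -0.06 and the G2/M medians 0.10, 0.05, 0.05 and 0.02. Both classes were lowest on the 3 arrays with the highest endoderm marker sums. Those sums were also higher on induced 4 and 5 (6457 to 6552) than on induced 2 and 3 (3561 to 3718). Between these arrays the G1/S medians overlapped, and the G2/M medians were 0.05 and 0.02 against 0.10 and 0.05. The part of cells of that lineage in the class medians was not tested.

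G1/S and G2/M genes did not part ways between runs. The medians of the classes in the uninduced run difference, -0.17 and -0.09, both lay below that of all genes, and in the induced run difference they were -0.00 and 0.04. Cdk1, the kinase of mitotic entry, read 3527, 3478 and 3787 on uninduced 1 to 3, 3023 and 3294 on uninduced 4 and 5, 3268 on induced 1, 3861 and 3733 on induced 2 and 3, and 4061 and 4387 on induced 4 and 5. Its run differences had opposite signs without overlap inside either label, -0.19 (adjusted p = 0.212) and 0.15 (adjusted p = 0.419), and averaged over its 3 probes the induced difference was 0.37 and passed the test. Wee1, the kinase that holds Cdk1 inactive, had the largest difference between run differences among members, 0.66, on a dim probe that read 13.4 to 36.9.

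Lists of other genes of the same processes also had few calls between runs. Of 37 tested genes among 43 other replication and G1/S genes, 1 fell and 0 rose in the uninduced run difference, the histone chaperone gene Nasp (-0.31, adjusted p = 0.0355), and 0 were called in the induced. The medians were -0.11 and -0.03, and 28 of the 37 were negative in the uninduced difference. Of 28 tested genes among 40 other G2/M genes, 0 were called in either with limma, with medians of -0.10 and 0.01, and 16 of the 28 were negative in the uninduced difference, against 11 of 11 G2/M members.

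The largest number of calls came where label and array set coincide. In the mean of induced 2 and 3 and induced 4 and 5 minus the mean of uninduced 1 to 3 and uninduced 4 and 5, 12 of 35 members were higher and 7 lower. Of all 10084 genes 25.5% were higher and 30.5% lower, so the members' 54.3% lay beside a background of 56%. Label and array set cannot be told apart in this contrast. Induced 1, labelled induced but in the first array set, read nearer to the mean of the uninduced arrays for 15 of these 19 members and nearer to that of induced 2 to 5 for 4, namely Mcm6, Mcm7, Ccnd2 and Chek1. These means average over runs, and for Ccnd2 induced 1 (404) lay between uninduced 4 and 5 (394 and 416). How all called genes divide in this way was not counted, so 15 of 19 is not read as particular to the members. On the largest component of variation over all tested probes, induced 1 (-21.3) lay among uninduced 1 to 5 (-24.1 to -18.4). Induced 2 to 5 lay apart (26.8 to 36.5).

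**Figure D4:**
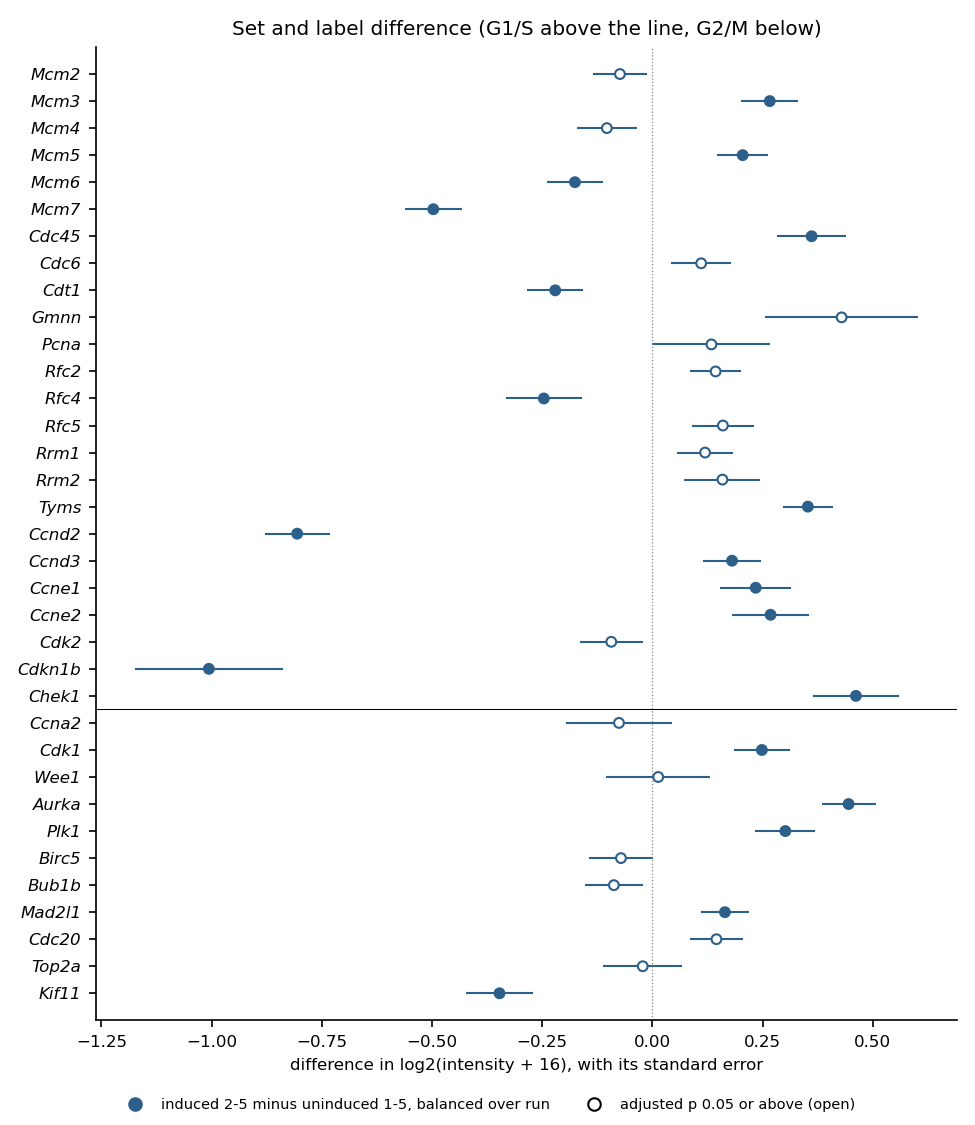
Difference between induced 2 to 5 and uninduced 1 to 5, balanced over runs, for the 35 tested members in log2(intensity + 16), with its standard error; filled points have an adjusted p under 0.05. Of the filled points 12 lie right of 0 and 7 left, with Ccnd2, Cdkn1b and Mcm7 farthest left and Chek1 and Aurka farthest right among them.

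Members of the same complex went in opposite directions in this contrast. Mcm7 read 821, 873, 750, 694 and 702 on uninduced 1 to 5, 617 on induced 1, and 556, 556, 495 and 511 on induced 2 to 5. It was lower on induced 2 to 5 than on any other array, by 0.50 ± 0.06 (adjusted p = 0.000259). Mcm6 was also lower (-0.18, adjusted p = 0.0423).

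Mcm3 and Mcm5, subunits of the same ring, were higher. Mcm3 read 1845, 1998, 1907, 1570 and 1646 on uninduced 1 to 5, 1409 on induced 1 and 2183, 2221, 2166 and 1901 on induced 2 to 5 (0.27 ± 0.06, adjusted p = 0.00740). Mcm5 read 9777, 9317, 9451, 8756 and 8790, then 9317 on induced 1, then 11344, 10728, 10334 and 9777 (0.20 ± 0.06, adjusted p = 0.0145). In both, the groups overlapped. Cdc45, which joins the ring when an origin fires, read 501 to 601 on uninduced 1 to 5, 456 on induced 1 and 794, 704, 720 and 603 on induced 2 to 5 (0.36 ± 0.08, adjusted p = 0.00403), just without overlap. Mcm2 (-0.07, adjusted p = 0.329) and Mcm4 (-0.10, adjusted p = 0.225) were not called.

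Around the ring, Cdt1, which loads it, was lower (-0.22, adjusted p = 0.0156). Its partner Cdc6 differed by 0.11 on its brightest probe (adjusted p = 0.198) and by -0.092 averaged over its 2 tested probes. Rfc4 was lower (-0.25, adjusted p = 0.0349), while Rfc2, Rfc5 and Pcna were not called, with differences of 0.13 to 0.16. Tyms, which makes thymidylate for DNA, read 2493, 2640, 2604, 2580 and 2529 on uninduced 1 to 5, 2521 on induced 1 and 3211, 3297, 3357 and 3261 on induced 2 to 5. The groups were far apart against their spread (0.35 ± 0.06, adjusted p = 0.000793), and induced 1 lay among the uninduced arrays. Rrm1 and Rrm2, subunits of ribonucleotide reductase, were not called on their brightest probes, but a second Rrm2 probe was higher by 0.68 (adjusted p = 0.000258).

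Among the G1 regulators, Ccnd2 was lower on induced 2 to 5 at matched run (-0.81 ± 0.07, adjusted p = 4.85e-05), and Ccnd3 (0.18), Ccne1 (0.23) and Ccne2 (0.27) were higher. Cdkn1b, the CDK inhibitor p27, read 31.4, 31.4, 26.6, 33.7 and 13.3 on uninduced 1 to 5, 21.4 on induced 1 and 8.42, 0.43, 7.28 and 4.01 on induced 2 to 5. It was under the background limit of 10.6 on 4 of the 4 arrays of the second set, so only a bound holds there. With values raised to the limit, it was at least 2.44-fold lower by plain means of log2 values, not balanced over runs. The contrast balanced over runs gave -1.24 with these raised values (adjusted p = 0.00403 with limma). Its adjusted p in the main fit was 0.000993. Chek1, the checkpoint kinase that answers stalled forks, read 89.2, 105, 105, 109 and 86.2 on uninduced 1 to 5, 119 on induced 1 and 155, 122, 155 and 136 on induced 2 to 5 (0.46 ± 0.10, adjusted p = 0.00354).

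In the G2/M class 4 of 11 tested genes were higher and 1 lower (45.5% called). Of all genes 25.5% were higher and 30.5% lower, so calls in both directions were not particular to this class. Aurka, a centrosome kinase, read 2397, 2485, 2416, 2287 and 2275 on uninduced 1 to 5, 2218 on induced 1 and 3273, 2989, 3439 and 3162 on induced 2 to 5 (0.44 ± 0.06, adjusted p = 0.000361). Plk1, a kinase of mitotic entry and spindle assembly, read 1402 to 1730 on uninduced 1 to 5, 1344 on induced 1 and 1880, 2005, 1939 and 1809 on induced 2 to 5 (0.30 ± 0.07, adjusted p = 0.00495). Neither gene overlapped between uninduced 1 to 5 and induced 2 to 5, and on induced 1 each was below all uninduced arrays.

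Kif11, the motor that pushes spindle poles apart, went the other way, reading 784, 826, 831, 712 and 859 on uninduced 1 to 5, 731 on induced 1 and 591, 632, 674 and 600 on induced 2 to 5 (-0.35 ± 0.08, adjusted p = 0.00427). Cdk1 was higher (0.25 ± 0.06, adjusted p = 0.00942), as was Mad2l1, a spindle checkpoint protein (0.16, adjusted p = 0.0305). Top2a, Bub1b, Ccna2, Wee1, Birc5 and Cdc20 were not called on their brightest probes. Their differences lay between -0.09 and 0.15.

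Probes of the same gene did not always tell the same story in this contrast. Of the members 12 had several tested probes. The 4 Cdc20 probes, for the activator of the anaphase complex, gave 0.15 for the brightest (adjusted p = 0.0674) and 0.32, 0.46 and 0.73 for the others, which all passed. The 3 Cdk1 probes gave 0.25, 0.26 and -0.75, the first and the last past the test. The 4 Mcm6 probes lay between -0.18 and 0.33, with calls at both ends. The 3 Ccnd3 probes gave 0.18, 0.30 and 0.92, and the 5 Tyms probes lay between -0.10 and 0.63. The 2 Rrm2 probes gave 0.16 and 0.68, and their average was higher by 0.42 (adjusted p = 0.00109). The 2 Chek1 probes averaged 0.26 (adjusted p = 0.0383 with limma), where the brightest alone gave 0.46. When probes were averaged, Cdk1 and Mcm6, both called on their brightest probes, changed sign, to -0.082 and 0.081. Cdc6, Cdk2 and Birc5, not called on their brightest probes, also changed sign, to -0.092, 0.096 and 0.13. None of these averages passed the test.

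Leaving out 1 array at a time kept 11 of the 19 set and label calls in every fit, and the other 8 kept their direction with a size near the threshold. Ccnd3 (0.15 to 0.20) lost its call without uninduced 1, 4 or 5 or induced 2, 3, 4 or 5, and Mad2l1 (0.15 to 0.17) without the same arrays or uninduced 3. Mcm6 (-0.22 to -0.13) lost it without any of uninduced 1 to 5 or without induced 3 or 4. Rfc4 (-0.29 to -0.20) lost it without uninduced 1, 3, 4 or 5 or induced 3 or 5, Ccne1 (0.18 to 0.29) without uninduced 2, 4 or 5 or induced 3 or 5, and Ccne2 (0.22 to 0.32) without uninduced 4 or 5 or induced 2, 3 or 4. Cdt1 lost it without induced 2 or 5 and Mcm5 without induced 2. Rfc4, Ccne1 and Ccne2 also lost it without the filter on dim probes, and Rfc4 with its probes averaged.

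**Figure D5:**
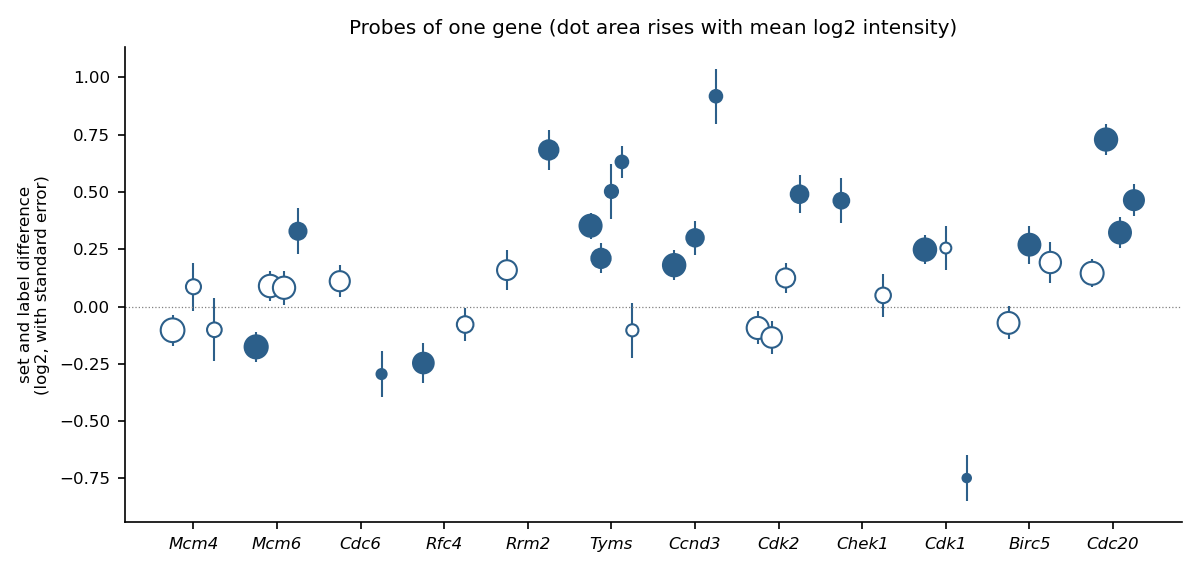
Difference between induced 2 to 5 and uninduced 1 to 5, balanced over runs, in log2(intensity + 16) with its standard error, for each tested probe of the 12 members with several. Dot area rises with mean log2 intensity and filled dots have an adjusted p under 0.05. Cdk1 and Mcm6 have filled dots on both sides of 0, and the Ccnd3 and Cdc20 probes spread over 0.18 to 0.92 and 0.15 to 0.73.

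Other genes of these processes were called in both directions here, as were all genes (25.5% higher and 30.5% lower). Of the 37 other replication and G1/S genes tested, 9 were higher and 8 lower, led by Cdc25a, a phosphatase that activates CDKs (-0.88), Rpa2, a subunit that coats single-stranded DNA (0.73), the transcription factor E2f1 (-0.70) and the histone chaperone Asf1b (0.55). Of the 28 other G2/M genes, 6 were higher and 7 lower, led by the mitotic kinesin Kif20a (1.05) and Hmmr, a spindle-associated protein (-0.76). In the list around the D cyclins 5 were higher and 4 lower, and Myc was higher by 0.79 (adjusted p = 2.51e-05). In these 3 lists 45.9%, 46.4% and 64.3% of the tested genes were called, beside 56% of all genes. Medians of these 3 lists were -0.04, -0.02 and 0.07, against -0.02 for all genes. Of the tested endoderm markers 0 were higher and 6 lower in the same contrast.

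The comparison the labels name, all induced against all uninduced arrays, gave fewer calls among these genes. Of 35 members 1 was higher, Chek1 (0.41 ± 0.10, adjusted p = 0.0238), and 3 were lower, Mcm7 (-0.48 ± 0.09, adjusted p = 0.0206), Kif11 (-0.31 ± 0.09, adjusted p = 0.0351) and Cdkn1b (adjusted p = 0.0245), which was under the background limit on 4 of the 5 induced arrays and at least 2.12-fold lower with values raised to that limit. Among all genes 8.5% were higher and 11% lower. Chek1 and Mcm7 were the tested members whose 5 induced arrays did not overlap with the 5 uninduced. How many of all genes were without overlap was not counted, so this is not read as particular to these genes. A second Chek1 probe differed by 0.00, and with its probes averaged Chek1 was not called by label (0.21, adjusted p = 0.130 with limma). Ccnd2 was lower by label as well (-0.88 ± 0.35), but the run spread inside each label was as large and the adjusted p was 0.0888.

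The label calls lay near the threshold. Leaving out each array in turn kept Mcm7 between -0.52 and -0.43, Chek1 between 0.37 and 0.46 and Kif11 between -0.35 and -0.28, while the number of members called changed. It was 0 without uninduced 1, 2 or 3 or induced 2, 4 or 5, with 6 or 7 members at an unadjusted p under 0.05 with limma, and it was 4 without uninduced 4, 3 without uninduced 5, 2 without induced 3 and 12 without induced 1. With the run as a block 6 members and 3984 probes were called. With the array set as a block, or on the first array set alone, the label is carried by induced 1 alone against uninduced 1 to 5. There 0 members were called (2 and 0 at an unadjusted p under 0.05), a fit with little reach, in which Mcm7 differed by -0.30, Chek1 by 0.24 and Kif11 by -0.13. The other replication and G1/S list held 2 higher and 4 lower genes by label, the other G2/M list 2 and 2, and the list around the D cyclins 2 and 0, the inhibitor genes Cdkn2d (0.52, adjusted p = 0.0434) and Cdkn2a (0.46, adjusted p = 0.0446).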

How the data were processed

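For each array the authors deposited a linear intensity per probe. The deposited intensity values had a background subtracted, since 25.5% lie below 0, and the arrays had been normalized to each other, since their 75th percentiles coincide; the sources used here do not name the software. A second deposited table was not used, because its 20 columns carry sample numbers that match no label. Per the labels, Trizol and a column kit gave the RNA, which was amplified to biotinylated cRNA. The number of arrays, 5 per label, limits the precision.

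Gene symbols came from the platform annotation updated through Entrez identifiers: 23978 probes had 1 symbol, 1719 none and 0 several, and 23962 of the named were matched by identifier. Deposited intensities were floored at 0 and taken to log2 after adding 16. The background limit, 10.6, is the 0.95 quantile of a normal spread with the SD (6.45) of negative values mirrored about 0. A probe was tested if above it on at least 5 arrays (14985 probes), and each of 10084 genes was read from its brightest probe by mean over all arrays. Tests used limma 3.58.1 under R 4.3.3 (two-sided), with a model of all 10 arrays by label, or with 1 mean per label, array set and run; adjusted p-values (Benjamini-Hochberg over all tested probes) were read at 0.05. Percentages of all genes refer to representative probes. A level not above the limit on every array of a group is given as a bound, from mean log2 values with intensities under the limit raised to it. Scripts were tested on simulated data. The members, lists and tests were chosen with earlier results of these data known. Values on every array were given for members called between runs or between sets, up to 10 of the largest size per contrast. They were also given for 7 genes of the list regardless of call (1 of them, Ccnb1, not analysed on the arrays). For genes of the other lists, values were given for up to 4 called per list. Alternatives changed the added constant, filter, normalization, weights, blocks and arrays. Averages of both runs and of all probes of a gene were added after the data were seen.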

Additional observations from a re-analysis of the deposited data

Results flagged for a closer look

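Groups of 5 arrays of the same label, 98 in all, were taken over the tested members and the list around the D cyclins. In 7 of them an array lay farther from the rest than Dixon's criterion for groups of 5 allows. Chance gives about 1 in 20 groups only where the 5 arrays are alike. Here each label mixes runs and the induced label mixes array sets, so that rate is no yardstick for the 7. On induced 1, Tyms was lowest at 2521 against 3211 to 3357 on the other induced arrays, and Mad2l1 was lowest at 2209 against 2507 to 2537. On the same array Rb1 was highest at 349 against 218 to 253, and Rbl1, a retinoblastoma-related protein, was highest at 254 against 128 to 141. For these 4 genes induced 1 read like the uninduced arrays. Cdkn2b, the inhibitor p15, was highest on induced 3 at 40.6 against 25.6 to 28.8. Fzr1, an activator of the anaphase complex, was highest on uninduced 5 at 3675 against 3319 to 3391. Skp2, which marks p27 for destruction, was lowest on induced 2 at 952 against 1203 to 1300 on the others.

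The run difference itself differed between labels for Sox7, an endoderm marker beside the cell cycle genes: the induced run difference was smaller than the uninduced by 1.15 on the log2 scale (-1.15, adjusted p = 0.0280 with limma). No member of the cell cycle list passed this test.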

How the results depend on the processing

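Ccnd2 was called in the uninduced run difference under 22 of 22 alternatives (-1.23 to -1.11) and in the induced under 22 of 23 (-1.44 to -1.17), the exception counting induced 1 with induced 2 and 3, where 0 members and 0 probes were called (1 and 1172 at an unadjusted p under 0.05). Between the uninduced runs 1 member was called without the filter or with these arrays alone, 5 with probes averaged, and 2318 probes (main 1387) with both runs averaged. Between the induced runs 574 probes (main 1121) were called with induced 2 to 5 alone, 2318 probes and 2 members with both runs averaged, and 2 members with probes averaged. Leaving out each array gave 660 to 1387 probes and 1 to 3 members in the uninduced, 573 to 1121 and 1 to 1 in the induced, and 7248 to 8388 and 13 to 19 in the set and label difference. By label (main 2919 probes, 4 members), the counts were 549 and 1 without the filter, 7313 and 14 with array weights, 3984 and 6 with the run as block, 0 and 0 with the array set as block, 522 and 1 with set and run as blocks, 0 and 0 in the first run alone (2987 and 7 at an unadjusted p under 0.05), 4400 and 8 in the second run alone, 0 and 0 in the first set alone, and 14 to 6821 and 0 to 12 with each array left out. The G1/S median by label turned to -0.090 with the set as block, -0.14 with set and run and -0.090 in the first set alone, and Cdkn2d turned to -0.10, -0.019 and -0.10. With probes averaged the set and label difference of Cdk1 was -0.082 and of Mcm6 0.081. The cause of these changes was not tested. Replicate numbers in the titles did not pair the arrays: deviations of same-numbered arrays correlated at -0.06 for number 1 and 0.29 to 0.31 for the others, and with the title number as replicate block 3344 probes and 4 members were called, with class medians of 0.08 (G1/S) and 0.06 (G2/M). Of the values of single genes, 123 of 132 kept their call in the uninduced run difference, 88 of 92 in the induced, 505 of 560 in the set and label difference and 81 of 162 by label. Dim probes limit what can be said of Cdkn1b, Wee1, Ccna2 and Gmnn.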
